A study of Rattus norvegicus with 48 samples.

Results

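Potassium channel genes were followed across 4 brain areas of adult male rats. The members are the probe sets with a single gene symbol starting with Kcn, 1 probe set per symbol, which gave 83 genes of the 14324 symbols on the array. They are 8 Kv1 subunits (Kcna), 1 Kv2 (Kcnb2), 2 Kv3 (Kcnc), 3 Kv4 (Kcnd), 3 Kv7 (Kcnq), 8 of the EAG, ERG and ELK families (Kcnh), 10 modifier subunits (Kcnf, Kcng, Kcns and Kcnv), 15 inward rectifiers (Kcnj), 11 two-pore leak channels (Kcnk), 8 calcium-activated channels and their subunits (Kcnm and Kcnn), 2 sodium-activated channels (Kcnt) and 12 accessory subunits (Kcnab, Kcne and Kcnip). Every member had exactly 1 probe set. Their mean level lay below the 30th percentile of all probe sets (6.25) for 11 genes and above it for 72.

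The rats were F3 Sprague-Dawley males. Their lineages descend from pregnant F0 females injected intraperitoneally on embryonic days 8 to 14 with vinclozolin, an anti-androgenic fungicide, at 100 mg/kg/day (Vin), or with the DMSO vehicle (Con). From postnatal day 23 to 43 they underwent restraint stress for 6 hours a day on 21 days (St) or none (NSt), and they were killed at 120 days of age after behavioural testing. Tissue came from 2 mm punches of the basolateral amygdala (BLA), primary and secondary motor cortex (CRTX), and hippocampal CA1 and CA3. Each area has these 4 groups, St-Vin, St-Con, NSt-Vin and NSt-Con, with 3 deposited arrays each, and the RNA of 4 rats was pooled for an array. A Con and a Vin rat were housed as a dyad, so all animals lived with a rat of the other lineage; dyad groups 1 to 3 were not stressed and dyad groups 4 to 6 were stressed. Every pool supplied all 4 areas.

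Potassium channels let potassium leave or enter the cell along its gradient and so set the resting potential, the length of the action potential and the rate of firing. Voltage-gated pores of the Kv1 to Kv4, Kv7 and EAG families open on depolarization, modifier subunits form no pore alone and join Kv2 subunits, inward rectifiers and two-pore channels carry current near rest, and calcium- and sodium-activated channels shape the after-potential. In the forebrain, Kv3 channels are known from fast-spiking interneurons, Kv4 channels from the dendritic A-type current, Kv7 channels from the muscarine-sensitive M current, and the G protein-gated rectifiers from slow inhibition.

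The analysis used 46 of the 48 arrays. The second motor cortex NSt-Vin array and the third CA1 St-Con array equal the mean of the other arrays of their group within 0.0051 and were left out, which leaves 12 amygdala, 11 motor cortex, 11 CA1 and 12 CA3 arrays. Deposited log2 values had array medians of 7.34 to 7.39 in CA3, 7.11 to 7.17 in CA1, 7.08 to 7.13 in the amygdala and 6.76 to 6.81 in motor cortex. Areas were therefore compared on log2 values brought to a common distribution (quantile alignment, called aligned below), and groups within an area on the deposited values. RNA of the amygdala and motor cortex was prepared on day 1 and RNA of CA1 and CA3 on day 2, so preparation day goes with the difference between these pairs of areas. The amygdala and part of motor cortex share scan day 1, and between the other areas scan day and area cannot be told apart. Of genes that mark the areas, Fezf2 was 8.81 in motor cortex, while the list of CA1 pyramidal genes was no higher in CA1 (8.50) than in CA3 (8.89), and the dentate granule gene Prox1 was 7.72 in CA1 and 8.66 in CA3. Among amygdala markers, Bmp3 (7.19) and Cyp26b1 (6.79) were highest in the amygdala punches and Rspo2 (8.72) was lowest there. The remaining marker Etv1 was 10.19 in the amygdala and 10.24 in motor cortex. The striatal gene Adora2a was 9.25 in the amygdala. In bulk tissue, fewer cells of a type and less RNA per cell cannot be told apart.

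The median span between the highest and the lowest area was 1.23 for the Kcnt genes, 0.76 for the modifiers, 0.66 for Kv3 and 0.59 for the Kcnh family, and 0.30 for the calcium-activated class. Motor cortex had the highest level of Kcns3, Kcnh5, Kcnab3, Kcnh7, Kcns1, Kcnf1, Kcnj9 and Kcna2, by 1.00 to 2.47 log2 units over the lowest area. The amygdala was highest for Kcng3 and CA3 for Kcnj13, Kcnj6 and Kcns2. The F test of limma over the 4 areas passed for 79 of 83 members at an adjusted p of 0.05 over all probe sets, against 94.9% of all probe sets with 1 symbol, so passing it sets no member apart. The 4 that did not pass are Kcne2, Kcnk15, Kcnk18 and Kcnn4. The area means, each the mean of its 4 groups, spanned at least 1 log2 unit for 15 members (18.1%) against 3.78% of all probe sets with 1 symbol. The median span was 0.49 for the members and 0.32 for all probe sets with 1 symbol. Just inside that limit lay Kcna2 and Kcnt2, both at 1.00, and just outside Kcnh1 (0.999) and Kcnk12 (0.933).

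**Figure D1:**
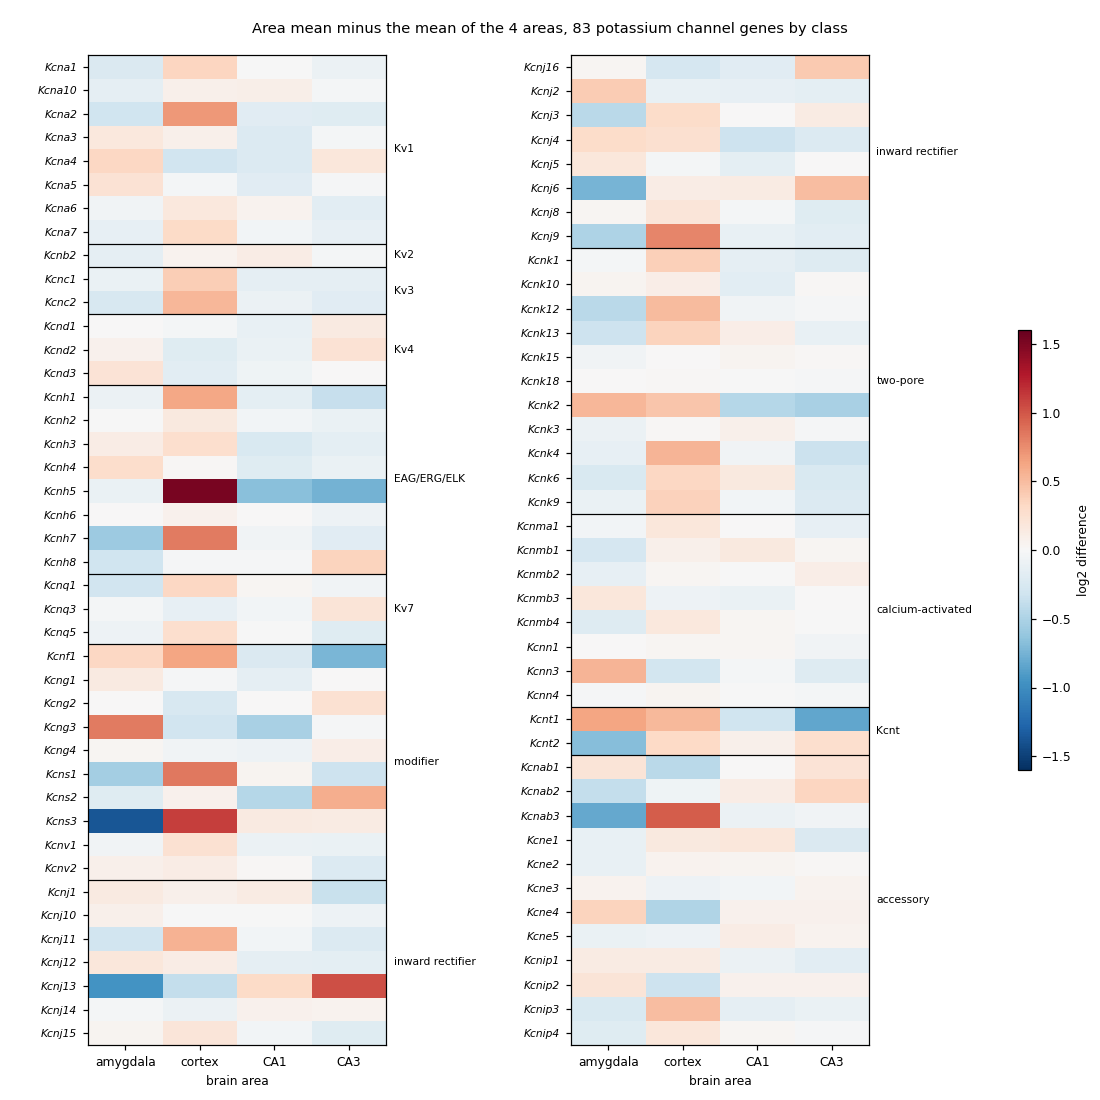
Heat map of the 83 potassium channel genes, grouped by channel class, in the 4 areas. Colour gives the aligned log2 area mean minus the gene's mean over the 4 areas, red for higher and blue for lower; the motor cortex column is the reddest for Kcns3, Kcnh5 and Kcnab3, and Kcng3 is reddest in the amygdala.

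Motor cortex exceeded each of the other areas for 32 members, with 18.4% of probe sets with 1 symbol doing so. The amygdala did for 12 members (background 14.9%), CA3 for 8 (12.8%) and CA1 for 1, Kcnmb1 (6.8%). The amygdala lay below each other area for 22 members (21.1%), CA3 for 10 (9.39%), CA1 for 6 (6.76%) and motor cortex for 5 (15.9%). These counts turn on the scaling: on deposited values CA3 exceeded each other area for 37 members and motor cortex for 11. The direction of small differences is therefore not fixed by these data. Under all 3 scalings (aligned, as deposited, and each array centred on its median) the highest area was motor cortex for 16 members, CA3 for 13, the amygdala for 6 and CA1 for 1, and it changed with the scaling for 47. The same shares over all probe sets were not computed, so these counts cannot be set against the array as a whole. The 16 are Kcna2, Kcnab3, Kcnc1, Kcnc2, Kcnf1, Kcnh1, Kcnh5, Kcnh7, Kcnip3, Kcnj11, Kcnj9, Kcnk1, Kcnk4, Kcnk9, Kcns1 and Kcns3. The 13 are Kcnab1, Kcnab2, Kcnd1, Kcnd2, Kcng2, Kcng4, Kcnh8, Kcnj13, Kcnj16, Kcnj6, Kcnmb2, Kcnq3 and Kcns2. The 6 are Kcne4, Kcng3, Kcnh4, Kcnj12, Kcnj2 and Kcnn3, and the CA1 gene is Kcne1. Of the 15 members that span at least 1, the highest area was motor cortex with median centring for Kcnt1 and Kcnk2 and CA3 on deposited values for Kcnt2, and the lowest area on deposited values was motor cortex for Kcng3 and CA1 for Kcnh5 and Kcnk2.

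Between pairs of areas, 65 of 83 members passed between the amygdala and motor cortex (background 75.2% of probe sets with 1 symbol), of which 20 were higher in the amygdala (33.7%) and 45 in motor cortex (41.5%). Between the amygdala and CA1, 57 passed (70.3%), and between the amygdala and CA3, 59 (72.3%). Between motor cortex and CA1, 56 passed (66.5%), of which 47 were higher in motor cortex (33.8%), and between motor cortex and CA3, 70 (72.2%), of which 47 were (34.7%). Members were called anew on deposited values, so the shares on aligned and deposited values rest on different sets of called members. Of the members called under each scaling, 83.9% were higher in motor cortex than in CA1 on aligned values and 30.4% on deposited values. For motor cortex over CA3 the shares were 67.1% and 20%. The share that lay above was 30.8% aligned and 55.9% deposited for the amygdala over motor cortex, 47.4% and 30.2% over CA1, and 50.8% and 12.3% over CA3. On aligned values CA1 and CA3 differed in the fewest members, 44 (56.8%), of which 52.3% were higher in CA1. Of the members called on deposited values, 7.81% were higher in CA1. With a difference of at least 1 added to the rule, 9 members passed between the amygdala and motor cortex (1.8%), 7 between motor cortex and CA3 (1.81%), 6 between the amygdala and CA3 (1.3%), 3 between the amygdala and CA1 (1.18%), 2 between motor cortex and CA1 (1.09%) and 1 between CA1 and CA3 (0.119%). On aligned values every motor cortex array lay above every array of the other areas in 16 members (19.3%, background 4.1%). These are not the same 16 as those highest in motor cortex under all 3 scalings. They include Kcna7, Kcnk12 and Kcnq1, which were highest in CA3 on deposited values, and Kcnk13, which was highest in CA1. Below, cortex stands for motor cortex, and a run of 3 values for an area gives its lowest, median and highest aligned log2 signal.

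The modifier subunits, which join Kv2 pores and alter their gating, had a median span of 0.76, and 5 of 10 spanned at least 1. Kcns3 measured 5.50, 5.63 and 5.75 in the amygdala, 7.94, 8.05 and 8.26 in cortex, 6.95, 7.13 and 7.26 in CA1 and 7.03, 7.11 and 7.19 in CA3. All motor cortex arrays lay above all others and all amygdala arrays below all others. Motor cortex exceeded the amygdala by 2.47 (SE 0.0358, limma adjusted p = 8.62e-34), a 5.55-fold difference, while CA1 and CA3 differed by 0.015 (adjusted p = 0.744). Its relative Kcns1 had the same order of motor cortex over amygdala. Kcns1 measured 5.48, 5.60 and 5.77 in the amygdala, 6.91, 6.96 and 7.09 in cortex, 6.11, 6.21 and 6.34 in CA1 and 5.71, 5.83 and 5.93 in CA3. Again no motor cortex array overlapped another area, and the difference from the amygdala was 1.39 (SE 0.0337, limma adjusted p = 2.23e-27); its mean level lay in the lowest 30% of probe sets. The third of the family, Kcns2, was instead highest in CA3. Kcns2 measured 6.32, 6.67 and 6.91 in the amygdala, 6.82, 6.94 and 6.98 in cortex, 6.20, 6.38 and 6.59 in CA1 and 7.29, 7.44 and 7.62 in CA3. CA3 arrays stood above all others, and CA3 exceeded CA1 by 1.04 (SE 0.0512, limma adjusted p = 3.43e-18). So the 3 Kcns genes had 2 different highest areas.

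Kcng3, another silent modifier, was highest in the amygdala under all 3 scalings. Kcng3 measured 7.88, 7.99 and 8.25 in the amygdala, 6.78, 6.87 and 7.04 in cortex, 6.55, 6.68 and 6.86 in CA1 and 6.93, 7.14 and 7.70 in CA3. Its amygdala arrays lay above all others, by 1.35 (SE 0.0567, limma adjusted p = 1.56e-20) over CA1. The highest CA3 value came from NSt-Con 2, which also had the highest CA3 level of the striatal marker list (8.94). Kcnf1 was high in motor cortex and the amygdala and lower in the hippocampus. Kcnf1 measured 8.67, 8.95 and 9.20 in the amygdala, 9.03, 9.22 and 9.50 in cortex, 7.16, 8.30 and 9.57 in CA1 and 7.72, 7.85 and 8.19 in CA3. The CA1 arrays overlapped all 3 other areas, whereas motor cortex and CA3 did not overlap, with a difference of 1.37 (SE 0.139, limma adjusted p = 1.05e-10). Kcng2 lay below all other areas in motor cortex, with means of 7.71 in the amygdala, 7.45 in cortex, 7.71 in CA1 and 7.94 in CA3.

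**Figure D2:**
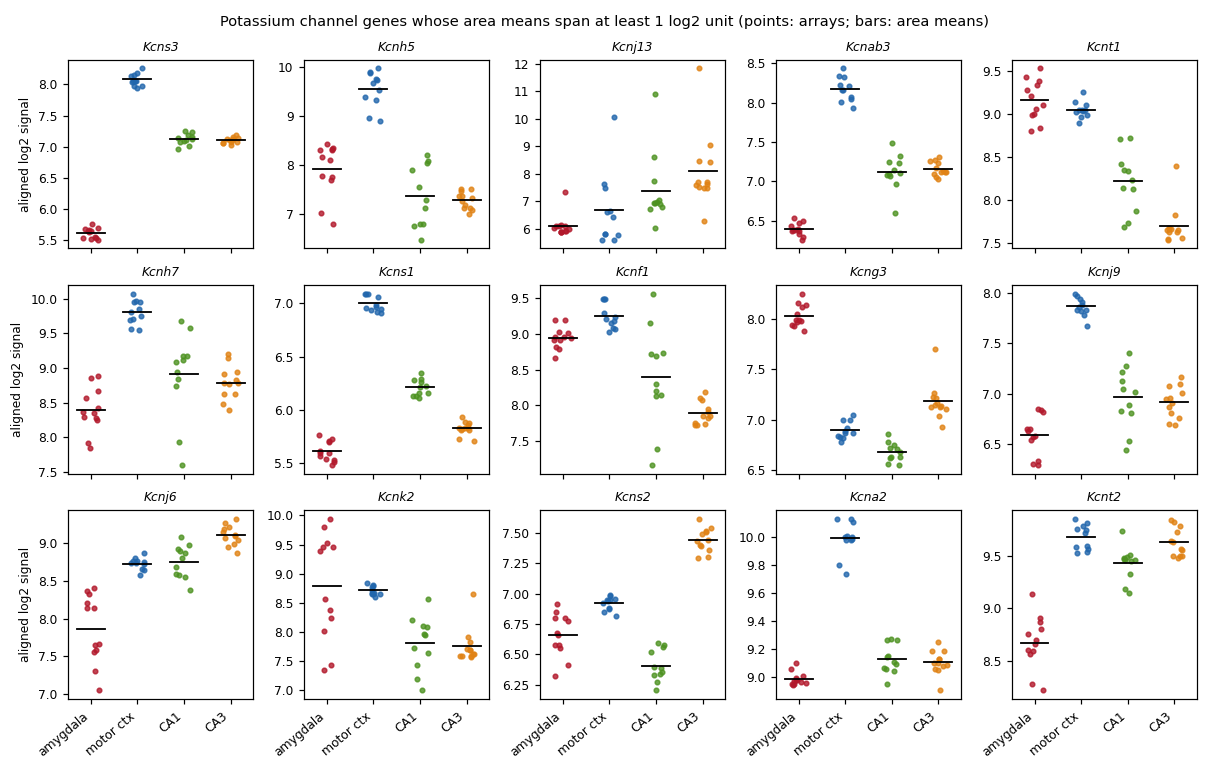
Aligned log2 signal of the 15 potassium channel genes whose area means span at least 1 log2 unit, with each point an array (12 amygdala, 11 motor cortex, 11 CA1, 12 CA3) and each bar the mean of the 4 group means. Kcns3, Kcnab3 and Kcns1 show motor cortex arrays apart from all others, and single high Kcnj13 arrays stand out in each area.

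The ether-a-go-go family (Kcnh) makes slowly gated voltage-dependent channels. All 8 members passed the F test, against 94.9% of all probe sets with 1 symbol. Kcnh5 had the second largest span of all members. Kcnh5 measured 6.79, 8.13 and 8.43 in the amygdala, 8.89, 9.68 and 9.97 in cortex, 6.47, 7.29 and 8.20 in CA1 and 6.99, 7.30 and 7.51 in CA3. Motor cortex arrays lay above all others, and the amygdala arrays were spread over more than 1 unit. Motor cortex exceeded CA3 by 2.28 (SE 0.206, limma adjusted p = 7.32e-12), a 4.84-fold difference. Kcnh7, an ERG subunit, was also highest in motor cortex, with the amygdala lowest. Kcnh7 measured 7.84, 8.36 and 8.88 in the amygdala, 9.55, 9.81 and 10.07 in cortex, 7.60, 9.09 and 9.67 in CA1 and 8.40, 8.78 and 9.19 in CA3. Motor cortex and the amygdala did not overlap, differing by 1.42 (SE 0.153, limma adjusted p = 4.19e-10), but CA1 arrays reached into the motor cortex range. Kcnh1, the close relative of Kcnh5, had means of 8.79 in the amygdala, 9.50 in cortex, 8.72 in CA1 and 8.50 in CA3, with motor cortex arrays above all others. Kcnh4 was highest in the amygdala (6.79 in the amygdala, 6.53 in cortex, 6.31 in CA1 and 6.39 in CA3) and Kcnh8 in CA3 (5.66 in the amygdala, 5.96 in cortex, 5.96 in CA1 and 6.34 in CA3). Kcnh2 and Kcnh6 were higher in motor cortex than in CA3 on aligned values and lower on deposited values.

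Among Kv1 genes, which encode low-threshold axonal and juxtaparanodal channels, Kcna2 had the largest span. Kcna2 measured 8.95, 8.98 and 9.11 in the amygdala, 9.74, 10.00 and 10.13 in cortex, 8.95, 9.11 and 9.28 in CA1 and 8.91, 9.10 and 9.25 in CA3. Motor cortex stood above all other arrays, by 1.00 (SE 0.0393, limma adjusted p = 1.04e-21) over the amygdala, and the other 3 areas overlapped. Kcna1, its common partner, was also highest in motor cortex on aligned values, with means of 9.57 in the amygdala, 10.15 in cortex, 9.79 in CA1 and 9.70 in CA3. Kcna4, which makes a fast inactivating current, had the opposite order, with 8.80 in the amygdala, 8.16 in cortex, 8.25 in CA1 and 8.65 in CA3. The amygdala exceeded motor cortex by 0.64 (SE 0.0972, limma adjusted p = 4.43e-07), and by 0.28 without the striatum-rich amygdala pools described below.

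The 3 Kcnab genes encode beta subunits of Kv1 channels and differed in their order of areas. Kcnab3 measured 6.25, 6.38 and 6.53 in the amygdala, 7.93, 8.16 and 8.44 in cortex, 6.59, 7.11 and 7.49 in CA1 and 7.03, 7.13 and 7.31 in CA3. Motor cortex arrays were all above and amygdala arrays all below the rest, a difference of 1.79 (SE 0.0614, limma adjusted p = 2.9e-23) or 3.45-fold. Kcnab2 was lowest in the amygdala and highest in CA3, with 9.83 in the amygdala, 10.14 in cortex, 10.33 in CA1 and 10.55 in CA3, CA3 exceeding the amygdala by 0.72 (SE 0.0529, limma adjusted p = 3.89e-14). Kcnab1 was lowest in motor cortex, with 10.56 in the amygdala, 9.92 in cortex, 10.36 in CA1 and 10.57 in CA3. Kcnab1 and Kcnab3 thus had motor cortex at opposite ends. Among the small Kcne subunits, Kcne4 was highest in the amygdala and lowest in motor cortex (6.60 in the amygdala, 5.77 in cortex, 6.31 in CA1 and 6.31 in CA3), differing by 0.83 (SE 0.0436, limma adjusted p = 3.46e-18).

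Promoters of 3 genes with large spans are shown, the 250 bases before the start in RefSeq (GRCr8), because Kcnh5 and Kcnab3 had motor cortex arrays apart from all others and Kcnj13 had CA3 highest. Capitals mark matches of the TATA box TATAAA, of the GC box GGGCGG, and of TCAGCACC and GGACAGC, parts of the element that the neuronal repressor REST binds; they were chosen after the sequences were seen and searched on both strands.
Kcnh5 promoter, chr6:99643857-99644106, minus strand: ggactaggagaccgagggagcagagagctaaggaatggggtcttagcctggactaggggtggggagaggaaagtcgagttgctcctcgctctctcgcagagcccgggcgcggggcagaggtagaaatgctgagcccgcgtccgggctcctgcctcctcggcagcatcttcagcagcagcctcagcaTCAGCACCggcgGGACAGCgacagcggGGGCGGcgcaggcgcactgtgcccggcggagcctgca
Kcnab3 promoter, chr10:54546388-54546637, plus strand: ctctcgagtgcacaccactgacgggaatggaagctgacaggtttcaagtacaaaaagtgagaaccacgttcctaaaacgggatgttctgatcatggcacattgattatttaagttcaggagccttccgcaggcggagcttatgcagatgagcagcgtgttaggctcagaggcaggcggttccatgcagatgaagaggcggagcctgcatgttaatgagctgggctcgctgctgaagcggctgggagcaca
Kcnj13 promoter, chr9:95518987-95519236, minus strand: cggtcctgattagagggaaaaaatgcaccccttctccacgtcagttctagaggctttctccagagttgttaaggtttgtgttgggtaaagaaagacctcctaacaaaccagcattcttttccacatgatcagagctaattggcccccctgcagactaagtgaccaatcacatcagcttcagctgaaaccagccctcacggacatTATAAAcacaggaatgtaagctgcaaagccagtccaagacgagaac
In Kcnh5 the matches TCAGCACC, GGACAGC and GGGCGG lay 64, 52 and 37 bases before the start, and in Kcnj13 TATAAA lay 46 bases before it. Kcnab3 held none of the 4 strings. Of 64 promoters found for 58 of the 83 members, 3.12% held TCAGCACC, 10.9% GGACAGC, 48.4% GGGCGG and 3.12% TATAAA, against 1.25%, 5.3%, 30.5% and 12.9% of 33469 rat promoters. A match is a description of the letters in this window.

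Both Kv3 genes measured, pores that let neurons fire fast, exceeded all other areas in motor cortex. Kcnc2 measured 8.87, 9.16 and 9.48 in the amygdala, 9.71, 9.96 and 10.16 in cortex, 8.81, 9.47 and 9.65 in CA1 and 9.09, 9.27 and 9.42 in CA3. All motor cortex arrays lay above the rest, by 0.79 (SE 0.0688, limma adjusted p = 2.7e-12) over the amygdala. Kcnc1 had means of 8.90 in the amygdala, 9.40 in cortex, 8.87 in CA1 and 8.87 in CA3, and the difference of motor cortex from CA3 was 0.54 (SE 0.039, limma adjusted p = 2.85e-14) but 0.014 (adjusted p = 0.723) on deposited values.

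The A-type genes moved less. Kcnd2, the main somatodendritic Kv4 pore, had means of 10.02 in the amygdala, 9.77 in cortex, 9.84 in CA1 and 10.18 in CA3, with CA3 above motor cortex by 0.42 (SE 0.111, limma adjusted p = 0.00113). Kcnd3 was lowest in motor cortex under all 3 scalings, with 8.78 in the amygdala, 8.40 in cortex, 8.50 in CA1 and 8.57 in CA3. Of the KChIP subunits that bind Kv4, Kcnip3 was highest in motor cortex (8.58 in the amygdala, 9.32 in cortex, 8.67 in CA1 and 8.72 in CA3), by 0.74 (SE 0.078, limma adjusted p = 2.37e-10) over the amygdala, and Kcnip2 was lowest there (8.68 in the amygdala, 8.14 in cortex, 8.54 in CA1 and 8.54 in CA3). Kcnip2 fell below the threshold between the amygdala and motor cortex without the striatum-rich pools (0.11, adjusted p = 0.414) and on scan day 1 alone (0.44, adjusted p = 0.196). Dpp10, a further Kv4 partner, was 8.48 in CA3, 8.95 in CA1, 9.40 in the amygdala and 10.01 in motor cortex, and Dpp6 was 9.92, 9.57, 9.85 and 9.35 in the same order. Of 27 genes of channel complexes without a Kcn symbol, 23 were measured and all 23 passed the F test (background 94.9%). On aligned values 10 of them lay above each other area in motor cortex (background 18.4%) and 7 below each other area in the amygdala (background 21.1%). Only Dpp10 of these spanned at least 1.

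The Kv7 genes spanned 0.46 at the median. Kcnq3, an M current subunit, was highest in CA3 (9.70 in the amygdala, 9.60 in cortex, 9.69 in CA1 and 9.94 in CA3), by 0.34 (SE 0.0422, limma adjusted p = 1.2e-08) over motor cortex. Kcnq5, its partner, had means of 9.19 in the amygdala, 9.54 in cortex, 9.26 in CA1 and 9.07 in CA3 and was higher in motor cortex than in CA3 by 0.46 (SE 0.0999, limma adjusted p = 0.000112) on aligned values, but lay 0.056 below CA3 on deposited values (adjusted p = 0.594). On aligned values the low-level Kcnq1 had every motor cortex array above and every amygdala array below all others. On deposited values its highest area was CA3.

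Among inward rectifiers, the G protein-gated (GIRK) genes Kcnj3, Kcnj6 and Kcnj9 were each lowest in the amygdala under all 3 scalings. Kcnj6 measured 7.05, 7.90 and 8.40 in the amygdala, 8.57, 8.74 and 8.87 in cortex, 8.38, 8.80 and 9.08 in CA1 and 8.86, 9.10 and 9.32 in CA3. The CA3 range overlapped those of CA1 and, at its edge, motor cortex, and no amygdala array reached it. CA3 exceeded the amygdala by 1.24 (SE 0.107, limma adjusted p = 2.68e-12). Kcnj9 measured 6.29, 6.61 and 6.85 in the amygdala, 7.67, 7.86 and 7.99 in cortex, 6.44, 7.02 and 7.40 in CA1 and 6.69, 6.93 and 7.17 in CA3. Here motor cortex stood above all others, by 1.28 (SE 0.0712, limma adjusted p = 1.89e-17) over the amygdala. Kcnj3, the subunit that partners both, had means of 9.70 in the amygdala, 10.43 in cortex, 10.14 in CA1 and 10.27 in CA3, with motor cortex above the amygdala by 0.73 (SE 0.063, limma adjusted p = 1.95e-12). Without the striatum-rich pools the Kcnj6 difference was 0.84, that of Kcnj9 1.22 and that of Kcnj3 0.49.

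Kcnj11, the pore of ATP-sensitive channels, was highest in motor cortex (7.24 in the amygdala, 8.11 in cortex, 7.50 in CA1 and 7.33 in CA3). Kcnj2, a strong rectifier, was highest in the amygdala (8.34 in the amygdala, 7.82 in cortex, 7.81 in CA1 and 7.78 in CA3), but the deposited values of the striatum-rich amygdala pools were 8.42 to 8.72 against 7.73 to 7.98 in the other amygdala pools. Kcnj10, the main astrocyte rectifier, spanned little (9.30 in the amygdala, 9.21 in cortex, 9.20 in CA1 and 9.14 in CA3), while its partner Kcnj16 was highest in CA3 (6.50 in the amygdala, 6.20 in cortex, 6.29 in CA1 and 6.88 in CA3). Kcnj8, known from pericytes, had means of 6.26 in the amygdala, 6.41 in cortex, 6.19 in CA1 and 6.03 in CA3.

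Kcnj13, a rectifier of choroid plexus epithelium, lay far apart between arrays of 1 area. Kcnj13 measured 5.87, 6.00 and 7.34 in the amygdala, 5.59, 6.42 and 10.06 in cortex, 6.04, 6.95 and 10.89 in CA1 and 6.27, 7.66 and 11.83 in CA3. In every area the highest array lay more than 1 unit above the median. In 5 arrays the choroid plexus list was more than 0.6 above their area mean: amygdala St-Vin 3, motor cortex NSt-Con 1, CA1 NSt-Con 2 and 3, and CA3 NSt-Con 3. In them deposited Kcnj13 was 7.33, 9.90, 8.61, 10.92 and 12.06, against 5.80 to 6.17, 5.37 to 7.30, 6.09 to 7.75 and 6.49 to 9.39 in the other arrays of the 4 areas. Kcne2, an accessory subunit of the same epithelium, was 7.12, 7.74, 7.32, 7.93 and 8.46 in these arrays, against 6.81 to 6.99, 6.50 to 6.78, 6.55 to 7.15 and 6.91 to 7.49. Both genes were highest in the same array of each area, and choroid plexus RNA in these arrays cannot be told apart from RNA of the punched tissue. CA3 exceeded the amygdala for Kcnj13 by 1.99 (SE 0.438, limma adjusted p = 0.000139), and by 1.76 (SE 0.248, limma adjusted p = 2.94e-07) without the 5 arrays.

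**Figure D3:**
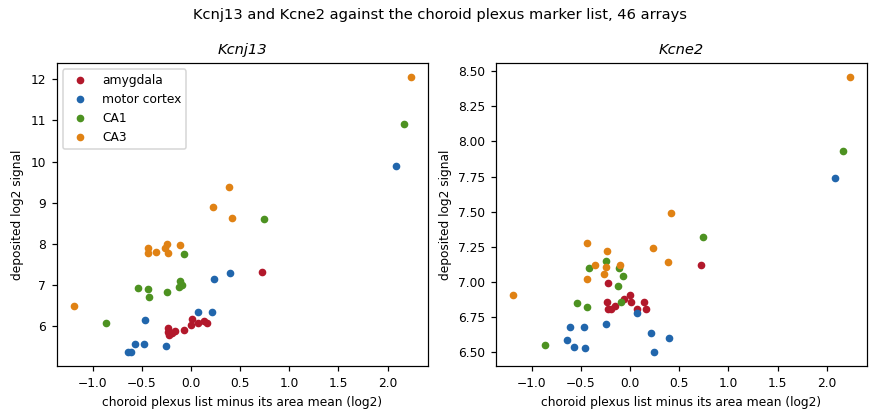
Deposited log2 signal of Kcnj13 and Kcne2 against the choroid plexus marker list minus its area mean, with each point 1 of 46 arrays and colour for area. The arrays with the highest list in motor cortex, CA1 and CA3 have Kcnj13 at 9.90, 10.92 and 12.06 and Kcne2 at 7.74, 7.93 and 8.46.

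The two-pore genes encode the background leak. In motor cortex 6 of 11 exceeded each other area on aligned values, and 3 of them (Kcnk1, Kcnk4 and Kcnk9) were highest there under all 3 scalings. Kcnk4 measured 8.69, 9.01 and 9.20 in the amygdala, 9.54, 9.64 and 9.96 in cortex, 8.68, 9.10 and 9.39 in CA1 and 8.52, 8.81 and 9.00 in CA3. Kcnk4, a mechanically gated leak channel, was higher in every motor cortex array than in any other, by 0.89 (SE 0.0637, limma adjusted p = 2.1e-14) over CA3. Kcnk12 showed the same separation on aligned values, with means of 6.76 in the amygdala, 7.69 in cortex, 7.12 in CA1 and 7.17 in CA3, and Kcnk1, a weak leak channel, had 9.71 in the amygdala, 10.12 in cortex, 9.61 in CA1 and 9.55 in CA3. Kcnk9, an acid-sensitive channel, had 8.37 in the amygdala, 8.85 in cortex, 8.43 in CA1 and 8.25 in CA3; on deposited values the motor cortex difference from CA3 was 0.045 (adjusted p = 0.713). Kcnk2, a stretch- and lipid-sensitive channel, was the exception. Kcnk2 measured 7.34, 8.97 and 9.94 in the amygdala, 8.61, 8.68 and 8.83 in cortex, 6.99, 7.95 and 8.56 in CA1 and 7.57, 7.65 and 8.65 in CA3. The amygdala arrays were the most spread and overlapped every other area. The amygdala exceeded CA3 by 1.04 (SE 0.216, limma adjusted p = 6.55e-05), and by 0.22 (adjusted p = 0.219) without the striatum-rich pools.

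Of the calcium-activated genes, Kcnn3, a small-conductance channel of the after-potential, was highest in the amygdala. Kcnn3 measured 9.00, 9.15 and 9.39 in the amygdala, 8.22, 8.32 and 8.40 in cortex, 8.53, 8.60 and 8.66 in CA1 and 8.30, 8.41 and 8.66 in CA3. All amygdala arrays lay above the rest, by 0.84 (SE 0.0324, limma adjusted p = 7.54e-22) over motor cortex. Kcnma1, the large-conductance pore, spanned little (10.26 in the amygdala, 10.48 in cortex, 10.31 in CA1 and 10.17 in CA3), and its neuronal subunit Kcnmb4 was lowest in the amygdala (8.62 in the amygdala, 8.99 in cortex, 8.86 in CA1 and 8.82 in CA3). The sodium-activated genes had opposite low areas. Kcnt1 measured 8.80, 9.15 and 9.53 in the amygdala, 8.90, 9.04 and 9.25 in cortex, 7.68, 8.23 and 8.71 in CA1 and 7.53, 7.65 and 8.40 in CA3. Kcnt1 was lowest in CA3, which lay below the amygdala by 1.46 (SE 0.0923, limma adjusted p = 7.56e-16), while the amygdala and motor cortex were not separated (adjusted p = 0.279). Kcnt2 measured 8.22, 8.68 and 9.14 in the amygdala, 9.53, 9.72 and 9.85 in cortex, 9.15, 9.46 and 9.74 in CA1 and 9.48, 9.60 and 9.84 in CA3. Kcnt2 was lowest in the amygdala, all of whose arrays lay below the rest, by 1.00 (SE 0.0619, limma adjusted p = 2.96e-16) from motor cortex.

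The unstressed arrays of scan day 1 are 6 of the amygdala and 4 of motor cortex. In a comparison of these arrays 76 of 83 members kept the sign of their difference between the amygdala and motor cortex. All 65 called members did, with Kcns3 at 2.53, Kcnab3 at 1.70, Kcns1 at 1.44, Kcnh7 at 1.32, Kcnj9 at 1.21, Kcna2 at 0.99 and Kcnt2 at 0.81. These arrays are among those that gave the 65 calls, so the agreement is in part set in advance. The share of all probe sets that kept their sign was not computed.

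Within the amygdala, channel genes varied with striatal content. The striatal marker list (11 measured genes) was 9.89 to 10.34 in the 6 arrays of dyad groups 1, 4 and 5 and 7.77 to 8.47 in the 6 arrays of groups 2, 3 and 6. Both sets hold both lineages and both stress conditions, but stress is uneven between them. Groups 4 and 5 of the first set were stressed and group 1 was not. In the second set group 6 was stressed and groups 2 and 3 were not. For 15 members the first set lay wholly above the second (18.1%, background 4.66% of probe sets with 1 symbol), and for 6 wholly below (7.23%, background 2.09%). Deposited Kcnk2 was 9.31 to 9.73 against 7.33 to 8.45. For Kcnab1 the values were 10.69 to 10.98 against 9.71 to 10.35, and for Kcnd2 10.13 to 10.45 against 9.16 to 9.90. Kcnip2 (the Kv4 subunit) gave 8.78 to 9.15 against 7.90 to 8.49, so a Kv4 pore and its subunit both lay higher in the striatum-rich pools. Kcnj2 gave 8.42 to 8.72 against 7.73 to 7.98 and Kcna4 8.90 to 9.18 against 8.11 to 8.44. In the other direction Kcnj6 gave 7.06 to 7.62 against 8.01 to 8.26, Kcnj3 9.02 to 9.54 against 9.61 to 9.83, Kcnj16 6.12 to 6.25 against 6.68 to 6.98 and Kcnk9 7.86 to 8.06 against 8.37 to 8.74. The part of striatal tissue in these values was not tested.

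**Figure D4:**
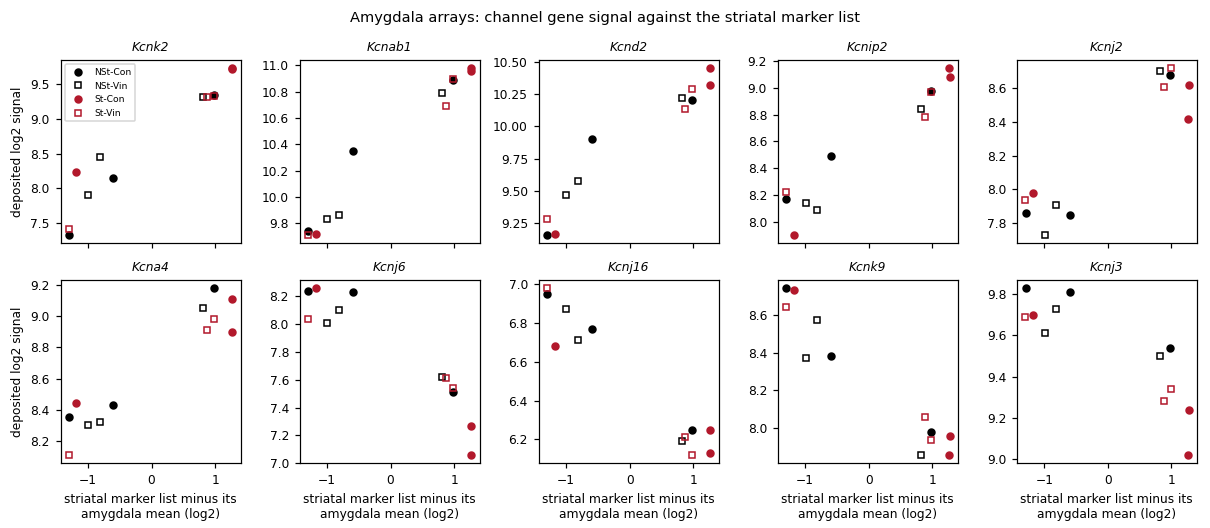
Deposited log2 signal of 10 potassium channel genes in the 12 amygdala arrays against the striatal marker list minus its amygdala mean; filled circles are control lineage, open squares vinclozolin lineage, black not stressed and red stressed. Kcnk2 is 9.31 to 9.73 against 7.33 to 8.45 in the arrays right and left of 0, and Kcnj6 is 7.06 to 7.62 against 8.01 to 8.26.

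Lineage and stress were compared within each area and over the mean of the 4 areas of 10 pools. No member passed an adjusted p of 0.05 in limma in any of the 28 comparisons within areas or in either comparison over pools. The p-values reflect the spread from pool to pool, each pool being other animals. Over all probe sets, limma called 0.636% for stress in the control lineage of motor cortex, 0.505% for stress in the vinclozolin lineage of CA1, 0.00731% for the stress average of motor cortex and 0 elsewhere. At an unadjusted p under 0.05, 17 members (20.5%) passed for stress in the vinclozolin lineage of CA1, against 19.3% of all probe sets, and 11 (13.3%) for stress in the control lineage of motor cortex, against 18.3%. The stress averages had 13 members in CA1 (15.7%, background 16.9%), 7 in CA3 (8.43%, background 10.6%), 6 in the amygdala (7.23%, background 4.13%) and 5 in motor cortex (6.02%, background 14.1%). Of these shares only that of the amygdala stress average lay more than 2 percentage points above the background. There the stressed dyad groups 4 and 5 were striatum-rich and the unstressed groups 2 and 3 were not. Stress and striatal content are therefore partly confounded in the amygdala. Lineage comparisons within areas had 0 to 4 members, with 2.09% to 6.04% of all probe sets. Over the pools 2 members passed for lineage (2.41%, background 2.97%) and 4 for stress (4.82%, background 8.27%) without adjustment.

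Kcnq5 in CA1 came closest to the threshold. Its deposited values were 9.48, 9.38 and 9.75 in NSt-Con, 9.59, 9.41 and 9.80 in NSt-Vin, 9.47 and 9.21 in St-Con and 8.66, 8.55 and 9.12 in St-Vin. The 3 St-Vin arrays lay below all others. The difference of St-Vin from NSt-Vin was -0.82 (SE 0.157, limma adjusted p = 0.053). It passed when NSt-Con 3 or St-Vin 3 was left out, with all arrays of the area, without the choroid-rich arrays, and with trend and robust settings. It did not pass on quantile-aligned values or with the filter on low values. The fit with all arrays adds back the third St-Con array, which equals the mean of the others of its group. The St-Vin arrays were scanned on another day than the other CA1 arrays, so scan day and group cannot be told apart.

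In motor cortex the closest genes were those for stress in the control lineage. Kcna5, a Kv1 pore, measured 7.17, 7.14 and 7.06 in NSt-Con, 7.26 and 7.23 in NSt-Vin, 7.30, 7.39 and 7.35 in St-Con and 7.28, 7.34 and 7.39 in St-Vin. The stressed control arrays were above the unstressed control arrays, by 0.22 (SE 0.054, limma adjusted p = 0.07). Kcnmb2, an inactivating subunit of the large-conductance channel, measured 6.49, 6.60 and 6.44 in NSt-Con, 6.25 and 6.37 in NSt-Vin, 6.25, 6.32 and 6.23 in St-Con and 6.21, 6.28 and 6.24 in St-Vin with a difference of -0.24 (SE 0.059, limma adjusted p = 0.071). Kcnj15 measured 5.50, 5.61 and 5.58 in NSt-Con, 5.57 and 5.59 in NSt-Vin, 5.27, 5.37 and 5.36 in St-Con and 5.47, 5.39 and 5.53 in St-Vin with a difference of -0.23 (SE 0.057, limma adjusted p = 0.0732). In each case the 3 stressed and 3 unstressed control arrays did not overlap, and they were scanned on different days. These genes were picked by this same contrast, so the lack of overlap adds no support. The share of all probe sets without overlap was not computed. In the amygdala Kcnj9 had the smallest unadjusted p for the stress average. It measured 6.61, 6.69 and 6.84 in NSt-Con, 6.83, 6.84 and 6.71 in NSt-Vin, 6.32, 6.28 and 6.61 in St-Con and 6.38, 6.54 and 6.62 in St-Vin. Stressed arrays lay at or below 6.62 and unstressed arrays between 6.61 and 6.84, a mean difference of -0.30 (SE 0.0686, limma adjusted p = 0.996). For lineage, the smallest unadjusted p belonged to Kcng2 in the amygdala, Kcnip1 in motor cortex, Kcne2 in CA1 and Kcnf1 in CA3, with adjusted p from 0.845 to 0.997.

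Kcnf1, Kcnip2 and Kcnq5 in CA1 passed for lineage with stress and for the interaction in fits with the pairing of cage mates as a block, and not without it. Deposited Kcnf1 in CA1 was 8.76, 8.17 and 7.43 in NSt-Con, 8.84, 8.18 and 7.20 in NSt-Vin, 8.75 and 8.34 in St-Con and 9.67, 9.21 and 8.24 in St-Vin. Between cage mates, vinclozolin minus control, Kcnf1 differed by 0.08, 0.01 and -0.23 in the unstressed and by 0.92 and 0.87 in the stressed dyad groups, while pools of 1 unstressed group differed by more than 1 unit. Kcnip2 in CA1 was 8.44, 8.72 and 9.00 in NSt-Con, 8.51, 9.06 and 9.39 in NSt-Vin, 8.33 and 8.61 in St-Con and 7.75, 8.03 and 8.67 in St-Vin, where the pools low in Kcnf1 were high. With the dyad group as a block, limma called 8 members for lineage with stress (9.64%, background 1.54% of probe sets with 1 symbol), 3 for the lineage average (background 0.53%) and 3 for the interaction (background 0.57%). The 8 are Kcnf1 (0.90), Kcnk2 (0.55), Kcnh7 (0.52), Kcnv1 (0.44) and Kcnj4 (0.43), higher in vinclozolin, and Kcnq5, Kcnj16 and Kcnip2, which fell by 0.73, 0.63 and 0.58. The block rests on 2 stressed pairs, because the third St-Con array was left out, and the stressed lineages were scanned on different days. Fezf2, a cortical gene, was 9.05 and 8.87 in St-Vin 1 and 2, 7.49 in NSt-Con 3, 7.39 in NSt-Vin 3 and 8.18 to 8.46 in the other CA1 arrays. The CA3 and CA2 marker list was 8.03 and 8.11 in St-Vin 1 and 2 and 8.40 to 8.87 in the others, and the dentate granule list (4 measured genes) 6.50 and 6.50 against 6.83 to 7.75. Their part in these values was not tested.

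**Figure D5:**
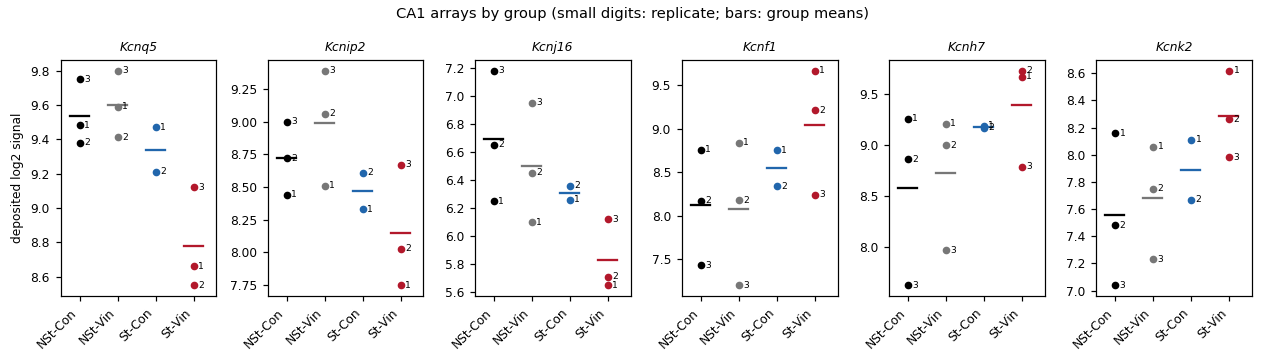
Deposited log2 signal in CA1 by group for channel genes named for stress or the dyad block, with each point an array labelled by its replicate number. For Kcnq5 the 3 St-Vin arrays (8.66, 8.55 and 9.12) lie below all other arrays, and Kcnf1 differs by more than 1 unit between pools of NSt-Con, of NSt-Vin and of St-Vin.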

How the data were processed

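RNA pooled from 4 rats was hybridised to 1-colour Affymetrix whole-transcript arrays. Per the submitters' processing notes the authors used Partek and RMA, and the deposited values are log2 signals; versions and genome build are not given in the sources used here. Precision is limited by the number of arrays, which have no read depth. Probe sets with several symbols (323) or none (11922) of 27342 were tested and not named. Groups were fitted with limma 3.58.1 (lmFit, eBayes; R 4.3.3): 16 group means over 46 quantile-aligned arrays for areas (F test and 6 pairs), 4 group means per area on deposited values for 7 comparisons each, and the mean of the 4 areas over 10 pools. P-values were adjusted by Benjamini-Hochberg across all probe sets and called at 0.05. The fit was tested on simulated data. If the areas were normalized separately, an offset by area cannot be told apart from a difference between areas.

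The members, marker lists and partner genes were chosen with earlier results of these data known. Named genes are, per class, up to 5 with the largest span past the F test, those called for lineage or stress, the 2 smallest unadjusted p per area and average, and fixed genes of known roles; Kcnmb2, Kcnj15 and Kcna5 were named for the control lineage after their values were seen. Cage mates pair the lineages per the labels; same-dyad pools correlated above 0.1 in 6 of 6 amygdala pairs, 5 of 5 CA1 pairs, 5 of 6 CA3 pairs and 3 of 5 motor cortex pairs. Alternatives were other scalings, a filter on low values, all 48 arrays, arrays rich in choroid plexus or striatum left out, scan day, the replicate block, trend and robust settings, and leaving out each replicate.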

Additional observations from a re-analysis of the deposited data

Results flagged for a closer look

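In CA1, 3 potassium channel genes had a lineage difference that differed between stressed and unstressed pools, by limma's interaction term with the dyad group as a block. They are 3.61% of the members, against 0.57% of all probe sets with 1 symbol. For Kcnf1 the interaction was 0.94 (SE 0.111, limma adjusted p = 0.0165), and 0.54 (adjusted p = 0.966) without the block. For Kcnip2 it was -0.85 (SE 0.113, limma adjusted p = 0.02), and -0.59 (adjusted p = 0.965) without the block. For Kcnq5 it was -0.80 (SE 0.0921, limma adjusted p = 0.0164), and -0.63 (adjusted p = 0.965) without the block. The stressed side rests on 2 dyad groups. For each gene both of their lineage differences lay beyond those of the 3 unstressed dyad groups. The genes were picked by the contrast of these same differences, so this separation follows from the choice and adds no support. In the stressed pools the scan day changes with the lineage, and the effects of both cannot be told apart. St-Vin 1 and 2, the stressed vinclozolin pools of these pairs, also stood apart in tissue markers: Fezf2 was 9.05 and 8.87 (8.46 or less in the other CA1 arrays), the CA3 and CA2 list 8.03 and 8.11 (8.40 or more), and the dentate granule list 6.50 and 6.50 (6.83 or more). The part of these in the interactions was not tested.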

How the results depend on the processing

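Of 502 recomputed counts, 479 stayed within 1.5 times the reported count. Many of the 479 are lineage or stress counts that were 0 and stayed 0. Of the alternatives of single genes 830 kept direction and call, 9 lost the call, 3 gained it and 13 reversed. Of the 830, 80 come from averaging all probe sets of a member. That repeats the main fit, because every member has 1 probe set, and its counts could not change either. The same holds for fits with all arrays of the amygdala or CA3, where none was left out. On values as deposited, the members above each other area were 37 in CA3, 11 in motor cortex, 4 in the amygdala and 2 in CA1, those below were 3 in CA1, 1 in CA3 and 35 in motor cortex, and 1 member was at least 1 apart between motor cortex and CA1; the deposited medians differ between areas. CA1 had 2 members above each other area with all 48 arrays and without the choroid-rich arrays, and motor cortex had 3 below each without the striatum-rich pools. Reversed as deposited were, for motor cortex minus CA3, Kcna6 (-0.22), Kcna7 (-0.099), Kcnh2 (-0.32), Kcnh6 (-0.40), Kcnj15 (-0.035), Kcnj8 (-0.13), Kcnma1 (-0.16) and Kcnq5 (-0.056), for motor cortex minus the amygdala Kcne2 (-0.16), for the amygdala minus CA3 Kcnip1 (-0.12) and Kcnj10 (-0.30, and -0.042 with median centring), and for CA1 minus CA3 Kcnn1 (-0.17). For stress in the control lineage of motor cortex 1 member passed on quantile-aligned values and 3 with all arrays, and 2 passed for its stress average with all arrays. In CA1, stress in the vinclozolin lineage had 1 with all arrays, without the choroid-rich arrays, and with trend and robust settings. The stress average there had 1 with all arrays. The array added back in each of these areas equals the mean of the others of its group and adds no measurement of its own. The stress average of Kcnj15 in motor cortex was -0.17 in both fits (limma adjusted p = 0.124, then 0.0355). That of Kcnq5 in CA1 was -0.51 in both (limma adjusted p = 0.115, then 0.0374). For the other settings the cause was not tested. With the replicate block (dyad group) CA1 had 8 members for lineage with stress, 3 for the lineage average and 3 for the interaction, and no other comparison changed its call. Leaving out each replicate gave 78 to 80 members past the F test, 12 to 16 spanning at least 1, 1 to 2 above each other area in CA1, and 0 to 1 for stress in the vinclozolin lineage of CA1. Scan day could not be fitted as a block in CA1.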
